A study of Mus musculus with 12 samples.

Results

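The Ly6 surface protein family was followed here in the small intestine of transplanted mice given tauroursodeoxycholic acid (TUDCA), a taurine-conjugated bile acid, or vehicle. It was taken as 8 mouse genes, Ly6a, Ly6c1, Ly6c2, Ly6d, Ly6e, Ly6g, Ly6i and Ly6k, each through the probe sets whose platform annotation names that gene and no other. Of the 8, 7 had such a probe set, 1 each, among 21408 genes named alone by some probe set and 23991 probe sets in all, and Ly6a is not analysed here. The family was chosen on the same log2 differences between TUDCA and vehicle arrays that are given below for its members, with Ly6d and Ly6g known to be among the high ones. Those differences are therefore given as a description, without a test.

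All 12 arrays came from wild type BALB/c recipients on day 14 after allogeneic haematopoietic cell transplantation. Every recipient, treated or not, had received total body irradiation and then bone marrow and T cells of a C57BL/6N donor, a model of acute graft-versus-host disease. The 6 TUDCA arrays came from mice given 200 mg/kg body weight TUDCA each day into the peritoneum, and the 6 vehicle arrays from mice given 200 µl of vehicle by the same route. The numbers that the labels give the samples lie in a low range below 100, with 2 TUDCA and 4 vehicle arrays (TUDCA replicates 1 and 2 and vehicle replicates 1 to 4), and a high range above 100, with 4 TUDCA and 2 vehicle arrays. The meaning of the ranges is not given. Each difference was estimated within these ranges. In every member a unit of 1 on the log2 scale is a doubling of array signal. A level depends on the probes as well as on the RNA, so levels are not set against each other gene by gene. Where a list or gene is placed among the highest or lowest values of the array, this is a rough guide only.

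Ly6 proteins are small cell surface proteins held in the membrane by a glycosylphosphatidylinositol anchor and built on the Ly6/uPAR domain, a compact disulfide-bonded fold of finger-like loops that is shared with the urokinase receptor and CD59. Most of the mouse genes lie side by side on chromosome 15, and several of them arose by duplication and resemble each other closely. They are known mainly as surface marks: Ly6g of neutrophils, Ly6c of monocytes, some T cells and some endothelium, Ly6d of lymphoid progenitors entering the B lineage and of stratified epithelium, and Ly6e as a gene induced by interferons. BALB/c and C57BL/6 mice carry different Ly6 haplotypes, so recipient and donor cells in 1 sample can carry different alleles. Whether alleles or near-identical copies reach the probes of another member was not tested.

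The array labels were checked against marker genes first. Of 12 genes of intestinal epithelium, all measured, 10 had a mean log2 value among the highest 25% of all probe sets, and the mean over the list lay from 10.71 to 11.01 in TUDCA and from 10.68 to 10.93 in vehicle arrays. The labels' description field names CXCL12-abundant reticular cells, whereas the source and tissue fields name small intestine. The 10 reticular cell genes had list means from 6.74 to 7.10 in TUDCA and from 6.75 to 6.998 in vehicle arrays, with 4 among the highest 25%. The arrays correlated with each other at 0.984 to 0.993 over all probe sets, and their medians lay between 5.90 and 5.95.

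The close resemblance of the neighbouring genes can be seen in the sequence just upstream of them. RefSeq promoter windows on GRCm38.p6 were found for 4 of 10 genes looked for, the members Ly6c1, Ly6c2 and Ly6g and their neighbour Ly6a2, a Ly6 gene outside the member list. They are shown because only these had such a window. They lie near each other in the same cluster and resemble each other. The log2 difference, TUDCA minus vehicle, was 1.26 for Ly6g, but -0.21 for Ly6c1, -0.41 for Ly6c2 and -0.57 for Ly6a2. Each run is the part of the window upstream of the gene, at chr15:75048921-75049087 on the minus strand for Ly6c1, chr15:75112067-75112221 on the minus strand for Ly6c2, chr15:75155011-75155260 on the plus strand for Ly6g and chr15:75135129-75135378 on the minus strand for Ly6a2. Capitals mark the longest run that all 4 share, 12 bases long.
Ly6c1: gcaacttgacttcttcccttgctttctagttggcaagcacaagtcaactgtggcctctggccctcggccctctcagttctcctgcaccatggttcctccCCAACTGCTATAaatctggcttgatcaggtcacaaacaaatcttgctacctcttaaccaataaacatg
Ly6c2: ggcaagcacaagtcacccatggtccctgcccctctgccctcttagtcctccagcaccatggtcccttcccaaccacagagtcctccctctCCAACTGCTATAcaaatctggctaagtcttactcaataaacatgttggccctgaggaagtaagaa
Ly6a2: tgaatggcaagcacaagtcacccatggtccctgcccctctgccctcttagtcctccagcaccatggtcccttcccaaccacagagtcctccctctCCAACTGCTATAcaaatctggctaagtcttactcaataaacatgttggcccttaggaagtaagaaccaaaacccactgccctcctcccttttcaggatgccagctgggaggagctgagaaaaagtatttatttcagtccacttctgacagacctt
Ly6g: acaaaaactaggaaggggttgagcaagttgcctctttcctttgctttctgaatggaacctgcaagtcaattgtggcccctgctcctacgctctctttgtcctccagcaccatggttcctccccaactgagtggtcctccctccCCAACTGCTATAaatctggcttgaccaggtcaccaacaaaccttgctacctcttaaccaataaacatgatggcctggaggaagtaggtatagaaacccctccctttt
In local alignments the Ly6c2 and Ly6a2 sequences were identical over 99.4% of their aligned positions, all but 1. Ly6c1 matched Ly6g at 142 of 190 aligned positions (74.7%) and Ly6c2 at 100 of 136 (73.5%), while Ly6g matched Ly6c2 at 123 of 180 (68.3%) and Ly6a2 at 143 of 213 (67.1%).

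Motifs were searched on both strands. The letters TTCNNNGAA of a gamma-activated site, bound by STAT factors, and GAAANNGAA, the core of an interferon-stimulated response element, were in none of the 300-base windows of these 4 genes, and in 8.3% and 8.56% of all 32851 windows. The letters GAGGAAGT, a core bound by the myeloid and B cell factor PU.1, were in the upstream parts of Ly6c2 and Ly6g and in a 300-base window of Ly6c1, and in 3.2% of all windows. Ly6a2 did not have them in its window. These are matches of letters only.

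Ly6d and Ly6g were the members with higher values in TUDCA, and Ly6e, Ly6c2 and Ly6c1 had lower means. Under limma with Benjamini-Hochberg adjustment over all probe sets and a threshold of 0.05, 2 of 7 members (Ly6d and Ly6g) were called higher and 0 lower, where 1.00% of all probe sets were called higher and 1.52% lower, and 3 members were under an unadjusted p of 0.05. Since this contrast chose the family, the count is only stated. The share of all probe sets under an unadjusted p of 0.05 was not counted for this contrast. Unadjusted counts here and below therefore have no background beside them and show no excess. The median difference was -0.10 over the 7 members and 0.01 over all probe sets. The TUDCA and vehicle values overlapped in all 7 members, and 1.98% of all probe sets did not overlap. The call of Ly6d was lost without TUDCA replicate 1 or without TUDCA replicate 2, with differences of 1.27 and 1.37, and that of Ly6g without either of these or without vehicle replicate 6, with differences of 1.23, 1.27 and 1.04. Both calls were also lost with robust variances and in the high range alone, and that of Ly6g in the low range alone (1.28).

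**Figure D1:**
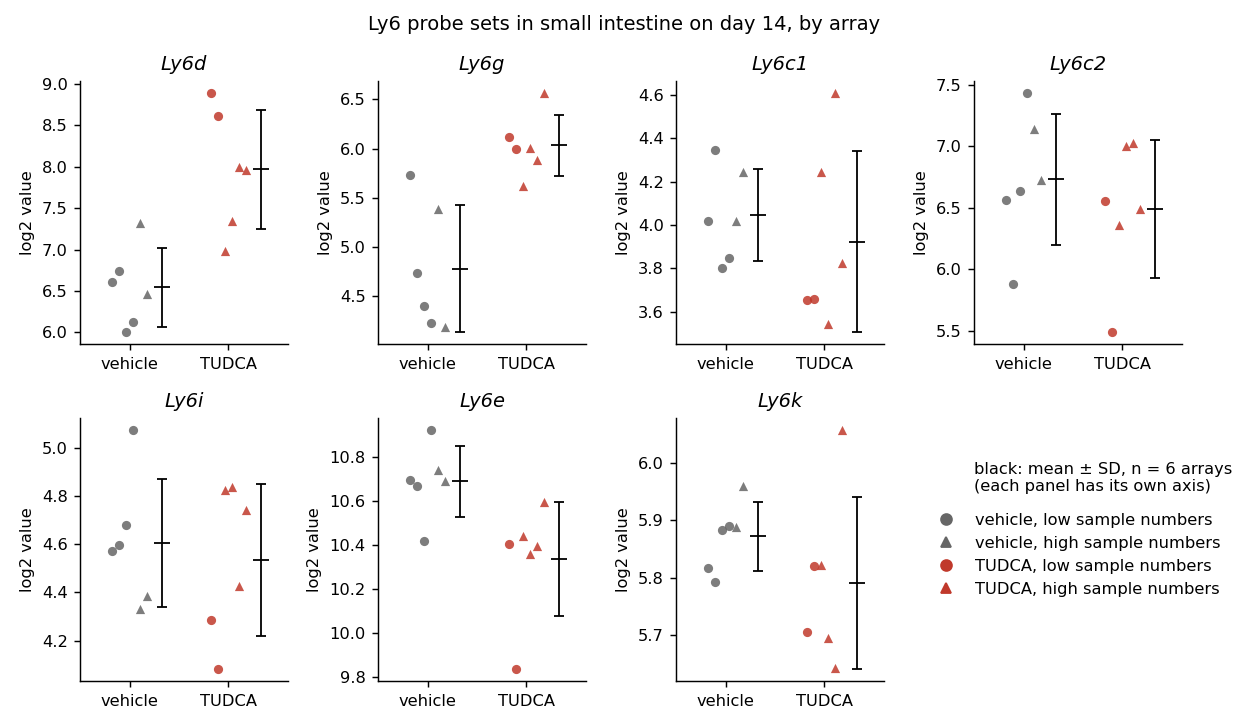
Log2 value of each Ly6 probe set on each array (vertical axis, its own in each panel) for vehicle and TUDCA, with circles for the low and triangles for the high sample numbers and black bars for mean ± SD over 6 arrays. Ly6d and Ly6g stand higher in TUDCA with 1 TUDCA array inside the vehicle spread in each, and Ly6e stands lower with 1 low array at 9.84.

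Among the members known from myeloid and lymphoid cells, Ly6g, the antigen by which mouse neutrophils are usually sorted, showed the same height of difference in both sample number ranges. Its log2 values were 6.12, 5.99, 5.62, 6.01, 5.89 and 6.56 in TUDCA replicates 1 to 6 and 5.74, 4.73, 4.40, 4.23, 5.38 and 4.19 in vehicle replicates 1 to 6. Every TUDCA array was above the vehicle mean of its range, and the overlap came from 1 TUDCA array, replicate 3, that lay below vehicle replicate 1. The vehicle arrays spread widely, with an SD of 0.65 against 0.31 in TUDCA. Vehicle replicates 3, 4 and 6 lay under 4.59, the bound of the lowest 25% of all probe sets. The means were 6.03 and 4.78 and the difference within ranges was 1.26 ± 0.26 (SE), a 2.39-fold higher signal. It was 1.28 among the low and 1.23 among the high sample numbers.

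No gene of the neutrophil list was called beside it. Of 16 genes of a neutrophil list, among them the granule and calprotectin genes, all were measured and limma called 0 higher and 0 lower, with 0 under an unadjusted p of 0.05 in either direction. Their median difference was 0.01, the same as over all probe sets. The mean over the list lay from 4.77 to 4.92 in TUDCA and from 4.76 to 4.94 in vehicle arrays, the summed signal from 491 to 578 and from 519 to 632, and 7 of the 16 were among the lowest 25% of all probe sets, under a log2 value of 4.59. The 3 with the smallest p were Mmp9, the gelatinase of neutrophil granules, at -0.33 ± 0.18 (SE, limma adjusted p = 0.445), Retnlg, a resistin-like secreted protein, at 0.20 ± 0.12 (adjusted p = 0.517), and Wfdc21 at -0.12 ± 0.09 (adjusted p = 0.585). In whole tissue, fewer cells of a type and less RNA per cell cannot be told apart.

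Ly6c2, which encodes the Ly6C of inflammatory monocytes and of memory and effector T cells, ranged more within groups than between them. Its lowest, median and highest log2 values were 5.49, 6.52 and 7.02 in TUDCA and 5.88, 6.68 and 7.43 in vehicle. The lowest array of each group was replicate 2, and the highest vehicle array was replicate 4. The difference was -0.41 ± 0.25 (SE), with -0.61 in the low and -0.21 in the high range, and 4 of 6 TUDCA arrays lay below the vehicle mean of their range.

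Ly6c1, the related gene known from endothelium and T cells, had values from 3.54 to 4.61 in TUDCA (median 3.74) and from 3.80 to 4.35 in vehicle (median 4.02). Its mean signal was at percentile 15.6 of all probe sets, among the lowest 25%. Of the TUDCA arrays, 4 of 6 lay below the vehicle mean of their range and 2 above it, replicates 3 and 5. The difference was -0.21 ± 0.17 (SE). Of 14 endothelial genes, all measured, limma called 0 in either direction, with 1 under an unadjusted p of 0.05, and the median difference was -0.11. Plvap, a protein of endothelial fenestrae, was at -0.43 ± 0.20 (SE, limma adjusted p = 0.335), Eng, a TGF-beta co-receptor of endothelium, at -0.30 ± 0.15 (adjusted p = 0.384), and Kdr, the main VEGF receptor, at -0.25 ± 0.14 (adjusted p = 0.475).

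Ly6i, a further Ly6C-like gene of the same cluster, had opposite differences in the 2 ranges. Its mean signal was at percentile 24.7 of all probe sets, just inside the lowest 25%. In the low range, TUDCA replicates 1 and 2 were at 4.29 and 4.08, below all 4 vehicle arrays at 4.57 to 5.07. In the high range, the 4 TUDCA arrays at 4.43 to 4.84 were above both vehicle arrays at 4.33 and 4.38. The difference was -0.55 in the low and 0.35 in the high range and -0.10 ± 0.16 (SE) over both. Of 14 monocyte genes, all measured, limma called 0 in either direction, with 3 under an unadjusted p of 0.05, and the median difference was -0.14. Lyz2, lysozyme of macrophages and granulocytes, was at -0.31 ± 0.11 (SE, limma adjusted p = 0.176), Csf1r, the receptor that maintains monocytes and macrophages, at -0.33 ± 0.14 (adjusted p = 0.325), and Cd14, the endotoxin co-receptor, at 0.27 ± 0.11 (adjusted p = 0.282).

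T cell genes were read beside Ly6c2, since T cells can carry Ly6C. Of 12 listed 10 were measured, and limma called 4 lower and 0 higher, against 1.52% of all probe sets lower, with a median difference of -0.33. Cd8a and Cd8b1, the chains of the CD8 co-receptor of cytotoxic T cells, fell by 1.03 ± 0.21 (SE, limma adjusted p = 0.0187) and by 0.67 ± 0.11 (adjusted p = 0.00497). Cd3e, a signalling chain of the T cell receptor complex, fell by 0.93 ± 0.18 (adjusted p = 0.0137). The mean over the T cell list lay from 6.04 to 7.002 in TUDCA and from 6.82 to 7.53 in vehicle arrays. Their part in the difference of Ly6c2 was not tested. The T cell list was chosen with earlier results of these data known, so its count is only stated.

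Among the members known from epithelium, Ly6d had the highest difference of the family. Its log2 values were 8.89, 8.61, 6.98, 7.35, 8.001 and 7.96 in TUDCA replicates 1 to 6 and 6.61, 6.75, 6.00, 6.12, 7.31 and 6.46 in vehicle replicates 1 to 6. The 2 TUDCA arrays of the low range were the highest of all 12, and the only overlap came from TUDCA replicate 3, which lay below vehicle replicate 5. The means were 7.97 ± 0.72 and 6.54 ± 0.47 (SD, n = 6 each), and the difference was 1.53 ± 0.30 (SE), a 2.89-fold higher signal. It was 2.38 in the low and 0.69 in the high range.

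Lists of cells that carry Ly6d were read beside it. Of 12 genes of stratified squamous epithelium 11 were measured, limma called 0 in either direction, with 1 under an unadjusted p of 0.05, and 6 were among the lowest 25% of all probe sets. Krt13, a keratin of stratified mucosa, was at -0.27 ± 0.12 (SE, limma adjusted p = 0.316), Sprr3, a protein of the cornified envelope, at -0.09 ± 0.09 (adjusted p = 0.714), and Trp63, the regulator of stratified epithelium, at -0.08 ± 0.09 (adjusted p = 0.767). Of 12 B lineage genes 9 were measured, with 0 called and 1 under an unadjusted p of 0.05. Blnk, the B cell linker of antigen receptor signalling, was at 0.36 ± 0.10 (adjusted p = 0.0664), and Vpreb3 and Vpreb1, of the surrogate light chain family, were at -0.17 ± 0.08 (adjusted p = 0.381) and 0.25 ± 0.13 (adjusted p = 0.435).

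The list of genes known from fetal-like, regenerating intestinal epithelium held 17 genes, 14 of them measured. Limma called 1 higher and 0 lower, against 1.00% and 1.52% of all probe sets, with 6 higher and 0 lower under an unadjusted p of 0.05, and the median difference was 0.20. S100a6, a calcium-binding protein, rose by 0.76 ± 0.16 (SE, adjusted p = 0.0237), from a mean of 9.06 in vehicle to 9.73 in TUDCA arrays. Krt7, a simple-epithelial keratin, was at 0.25 ± 0.07 (adjusted p = 0.0862), and Ereg, an EGF receptor ligand, at 0.31 ± 0.11 (adjusted p = 0.192). Among the intestinal epithelium genes Krt8, a keratin of simple epithelium, rose by 0.28 ± 0.06 (adjusted p = 0.0169), and limma called none of the other 11. The part of these genes in the difference of Ly6d was not tested. As the lists were chosen with earlier results known, these counts too are only stated.

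Ly6k, best known from testis, where it takes part in sperm function, varied least. Its values ran from 5.64 to 6.06 in TUDCA (median 5.76) and from 5.79 to 5.96 in vehicle (median 5.89). The groups overlapped over most of their range, and the difference was -0.10 ± 0.08 (SE).

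Ly6e, the interferon-induced member, which also alters entry of several viruses into cells, was lower on every TUDCA array than the vehicle mean of its range. Its values were 10.40, 9.84, 10.44, 10.36, 10.39 and 10.60 in TUDCA replicates 1 to 6 and 10.70, 10.67, 10.42, 10.92, 10.74 and 10.69 in vehicle replicates 1 to 6. All vehicle arrays but replicate 3 were above all TUDCA arrays. The means were 10.34 ± 0.26 and 10.69 ± 0.16 (SD, n = 6 each), and the difference was -0.41 ± 0.11 (SE), with -0.56 in the low and -0.27 in the high range. Ly6e was not among the called members.

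Genes of the interferon responses fell in part. Of 27 genes induced by interferon gamma 22 were measured, and limma called 10 lower and 0 higher, against 1.52% of all probe sets lower, with a median difference of -0.59. Gbp8, a guanylate-binding protein, fell by 1.25 ± 0.17 (SE, adjusted p = 0.00171). Irgm2, an immunity-related GTPase, fell by 0.65 ± 0.09 (adjusted p = 0.00184), and Irf1, a transcription factor of the response, fell by 0.50 ± 0.08 (adjusted p = 0.0037). Of 20 genes induced by type I interferon 18 were measured, with 3 called lower and 0 higher and a median difference of -0.32. These were Ifit2, which binds viral RNA and fell by 1.03 ± 0.17 (adjusted p = 0.00531), Oasl2, of the oligoadenylate synthetase family, at -0.61 ± 0.15 (adjusted p = 0.0472), and Stat2, the signal transducer, at -0.46 ± 0.09 (adjusted p = 0.0133). The part of either list in the difference of Ly6e was not tested. Since these lists were chosen with earlier results of these data known, their counts are only stated.

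The wider Ly6/uPAR family was compared next, as genes with the same domain that are no members. Of 40 such genes 35 were measured, and limma called 1 higher and 2 lower, 2.86% and 5.71% of them against 1.00% and 1.52% of all probe sets, with a median difference of 0.04 and 6 under an unadjusted p of 0.05. This list too was chosen with earlier results known, so its counts are only stated. Plaur, the urokinase receptor, which localises plasminogen activation to the cell surface, was at 7.34, 7.35, 7.21, 7.15, 6.93 and 7.63 in TUDCA and at 6.73, 6.53, 6.32, 6.69, 6.76 and 6.76 in vehicle replicates 1 to 6. The groups did not overlap, and Plaur rose by 0.63 ± 0.12 (SE, adjusted p = 0.011). The call was lost without TUDCA replicate 1 (0.59, adjusted p = 0.0589) or without TUDCA replicate 2 (0.59, adjusted p = 0.0524), and over the arrays left out in turn the adjusted p ran from 0.00531 to 0.0589.

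Ly6g2 fell by 0.56 ± 0.10 (SE, limma adjusted p = 0.00743). It was at 7.23, 7.29, 7.86, 7.67, 7.52 and 7.72 in TUDCA and at 8.20, 7.70, 7.80, 7.72, 8.37 and 8.05 in vehicle replicates 1 to 6, so that the groups overlapped. Without the sample number range as a term its difference was -0.43 (adjusted p = 0.128). Among the genes that were not called, the 3 with the highest absolute difference were Gml, a GPI-anchored Ly6-like gene inside the cluster, at 0.59 ± 0.25 (adjusted p = 0.307), Lypd6b, known as a modulator of nicotinic receptors, at 0.24 ± 0.08 (adjusted p = 0.193), and Gpihbp1, which carries lipoprotein lipase into capillaries, at -0.22 ± 0.14 (adjusted p = 0.543).

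**Figure D2:**
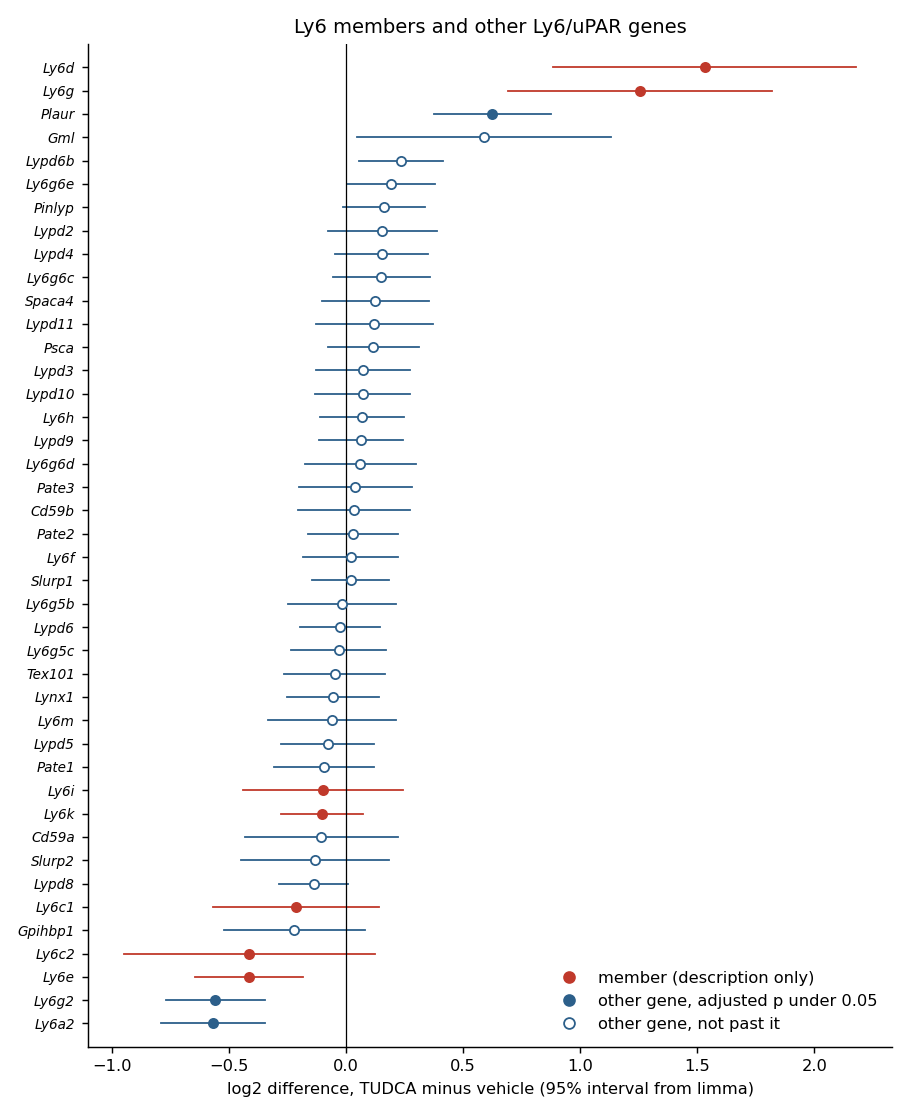
Log2 difference, TUDCA minus vehicle (horizontal axis), with the 95% interval from limma for 7 members (red) and 35 other Ly6/uPAR genes (blue, filled where the adjusted p was under 0.05). Ly6d and Ly6g stand at the right end at 1.53 and 1.26, Plaur follows at 0.63, and Ly6a2 and Ly6g2 stand at the left end at -0.57 and -0.56.

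The members were also read by their position in the gene cluster. In the order of RefSeq GRCm38.p6 the members run Ly6d, Ly6k, Ly6e, Ly6i, Ly6a, Ly6c1, Ly6c2 and Ly6g along chromosome 15, so that Ly6d and Ly6g, the members with higher values in TUDCA, stand at opposite ends. Of 16 other genes between them 6 were measured, and limma called 0 higher and 1 lower, against 1.00% and 1.52% of all probe sets. Gml, Ly6m and Ly6a2 are also in the Ly6/uPAR list above. The called gene was Ly6a2, already counted there, which lies between Ly6c2 and Ly6g and fell by 0.57 ± 0.10 (SE, adjusted p = 0.0101). Its values were 5.79, 5.74, 5.76, 5.94, 5.90 and 5.64 in TUDCA and 6.41, 6.25, 5.84, 6.27, 6.51 and 6.51 in vehicle replicates 1 to 6, with vehicle replicate 3 alone among the TUDCA values. Ly6a2 and Ly6g, neighbours in this order, thus had differences of opposite sign, while Ly6c2, whose upstream sequence is nearly that of Ly6a2, was at -0.41.

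The sample number range and its interaction with treatment were not used to choose the family and were tested. For the number range, limma called 0 of 7 members and 0% of all probe sets, with 0 members and 2523 probe sets under an unadjusted p of 0.05. The differences of high minus low range were between -0.33 (Ly6d) and 0.50 (Ly6c2), with adjusted p from 0.507 to 0.993. For the interaction, the difference between the ranges in the TUDCA effect, limma called 0 members and 0% of all probe sets, with 2 members and 1843 probe sets under an unadjusted p of 0.05. Those were Ly6d, with an interaction (high minus low range) of -1.69 ± 0.42 (SE, adjusted p = 0.516), and Ly6i, with 0.90 ± 0.22 (adjusted p = 0.516). The unequal differences between ranges in Ly6d and Ly6i therefore did not pass the adjusted threshold, with 2 arrays in 2 of the 4 cells of this design.

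Co-variation between arrays was read after the treatment and range effects had been removed as separate terms. This took out the mean difference by which the family was chosen. TUDCA differences that were unequal between the ranges, as in Ly6d and Ly6i, stayed in. Of 21 pairs of members 1 passed a permutation test with 100000 resamples after Benjamini-Hochberg adjustment over the pairs. The permutation shuffled the deviations freely and made no allowance for the terms already fitted. Its p-values are therefore somewhat too small, and those near the threshold are not firm. Ly6d and Ly6i ran against each other over the 12 arrays, with Pearson's r = -0.81 (permutation p = 0.00171, adjusted 0.0359) and Spearman's rho = -0.83 (permutation p = 0.00117, adjusted 0.0246). The relation was r = -0.77 without the 2 arrays farthest from the median, where it no longer passed (permutation test, adjusted p = 0.202). With the interaction removed as well, an alternative added after seeing the data, it was r = -0.53 (permutation test, adjusted p = 0.354). On these deviations it was -0.45 and -0.65 within the low and high ranges, and -0.50 and -0.56 within the vehicle and TUDCA arrays. Below, r within a range or group is likewise given with the interaction removed. Ly6d and Ly6i had interactions of opposite sign. Leaving out TUDCA replicates 1, 3, 4 or 5 or vehicle replicates 1, 2 or 5 brought the adjusted p above 0.05, to at most 0.125. Ly6d and Ly6g, both higher in TUDCA, had r = 0.49 (permutation test, adjusted p = 0.539). With the interaction removed as well, r of Ly6d and Ly6g was 0.71, which was not tested. On those deviations it was 0.80 and 0.67 within the vehicle and TUDCA arrays, and 0.66 and 0.79 within the low and high ranges.

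Members were then set beside the lists of cells or responses they are known from, in 10 relations picked after the levels had been seen, with adjustment over these 10. The permutation test had the same limit as for the pairs, so its p-values are somewhat too small. Ly6c2 followed the mean of the T cell list over the 12 arrays, with r = 0.93 (permutation p = 3e-05, adjusted 0.0003) and rho = 0.88 (permutation p = 0.00028, adjusted 0.0028). It was r = 0.86 without the 2 farthest arrays, 0.96 and 0.86 within the low and high ranges, and 0.95 and 0.94 within vehicle and TUDCA. With the monocyte list Ly6c2 had r = 0.72 (permutation p = 0.00794, adjusted 0.0265) and rho = 0.69 (adjusted 0.0518). Here r was 0.75 and 0.76 within vehicle and TUDCA, but 0.91 and 0.18 within the low and high ranges. The difference between the ranges was not tested.

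Ly6e followed the interferon gamma list with r = 0.77 (permutation p = 0.00371, adjusted 0.0186) and rho = 0.72 (permutation p = 0.0105, adjusted 0.0518). Without the 2 farthest arrays r was 0.56, so the relation rested in part on those arrays. Within vehicle and TUDCA r was 0.54 and 0.84, and within the low and high ranges 0.82 and 0.23. The difference between the ranges was not tested. With the type I interferon list Ly6e had r = 0.11 (permutation test, adjusted p = 0.778), with -0.30 and 0.91 within the low and high ranges and -0.48 without the 2 farthest arrays. Ly6d and the squamous list had r = 0.67 (permutation p = 0.0187, adjusted 0.0468) and rho = 0.62 (adjusted 0.088), and 0.46 and 0.89 within the ranges. The squamous list mean lay only from 4.48 to 4.66 in TUDCA and from 4.46 to 4.64 in vehicle arrays. Of its 11 measured genes 6 were among the lowest 25% of all probe sets. Ly6d had r = -0.45 with the fetal-like list and 0.18 with the B lineage list (permutation test, adjusted p = 0.238 and 0.703).

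Ly6g and the neutrophil list had r = 0.35 (permutation p = 0.268, adjusted 0.382) and rho = 0.27 (permutation p = 0.404, adjusted 0.578). Without the 2 farthest arrays r was -0.04, and it was 0.78 and -0.22 within the low and high ranges. Vehicle replicate 1, the vehicle array with the highest Ly6g value, also had the highest mean of the neutrophil list, 4.94. Ly6i had r = 0.48 with the monocyte list and Ly6c1 had r = 0.09 with the endothelial list (permutation test, adjusted p = 0.225 and 0.778).

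**Figure D3:**
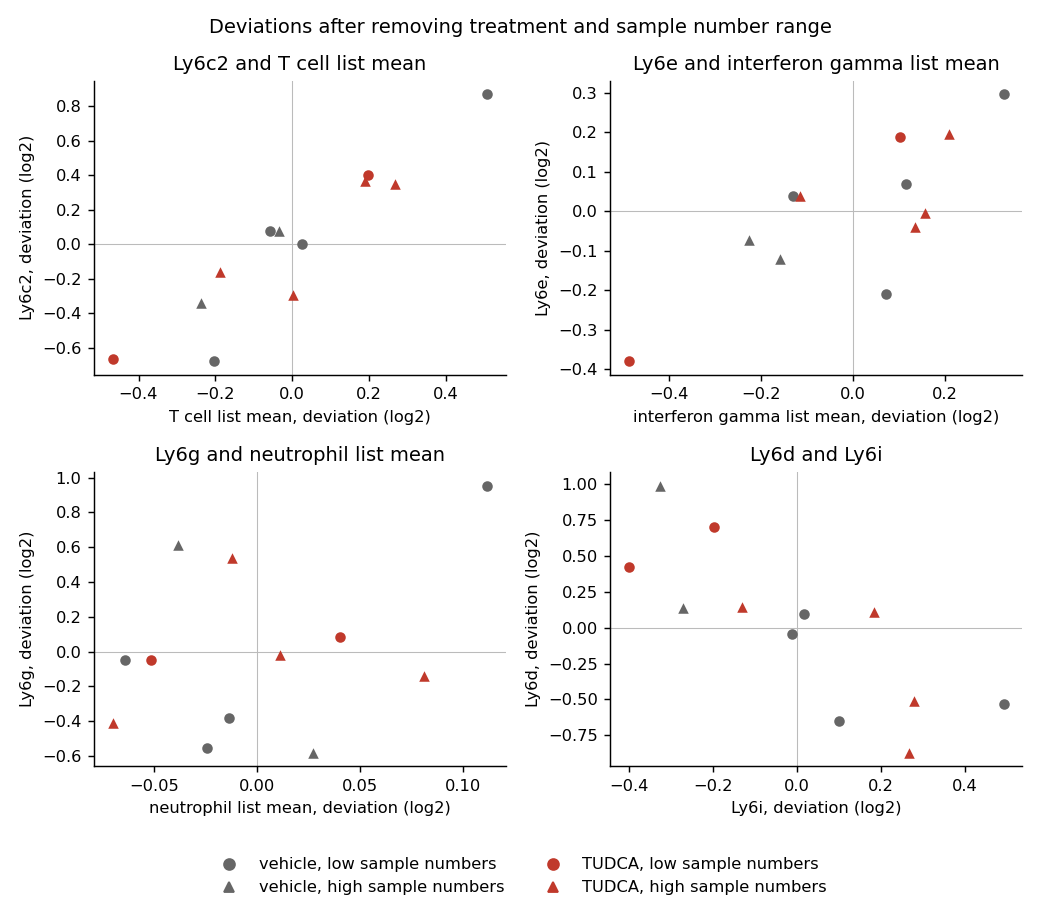
Deviation of a member's log2 value (vertical axis) against that of a list mean or of Ly6i (horizontal axis) on each of 12 arrays, after treatment and sample number range were removed. Ly6c2 rises with the T cell list (r = 0.93) and Ly6e with the interferon gamma list (r = 0.77), Ly6g shows little relation with the neutrophil list (r = 0.35), and Ly6d falls as Ly6i rises (r = -0.81). The interaction of treatment and range stays in these deviations, and with it removed r of Ly6d and Ly6i was -0.53.

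The genes most like each member were the 3 with the highest r of these deviations among 18863 probe sets, given as a description that the search itself pushes upwards. For Ly6c2 these were Gimap6, a GTPase of lymphocytes (r = 0.96), Kntc1, of the mitotic kinetochore (0.96), and Snx10, of endosomal sorting (0.95). Ly6i was nearest to Cd3d, a chain of the T cell receptor complex (0.95), to Mir802 (0.94) and to Trappc2, of vesicle transport (0.93). For Ly6g they were Cd5l, a secreted macrophage protein (0.91), Radil (0.91) and Bcl2l15 (0.90), and none of the 16 neutrophil genes was among them.

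For Ly6d the 3 were Gask1a (0.94), Ppp1r14b, a phosphatase inhibitor (0.94), and Defa40, of the alpha-defensins that Paneth cells secrete (0.92). Ly6e was nearest to Haus5, of the mitotic spindle (0.95), Gsap (0.94) and the olfactory receptor gene Olfr767 (0.92). Ly6c1 was nearest to the vomeronasal receptor gene Vmn1r231 (0.91), to Cyp2r1, the vitamin D 25-hydroxylase (0.89), and to Rxrb, a retinoid X receptor (0.88). Ly6k was nearest to Fthl17f (0.96), Zfp472 (0.93) and Mir1193 (0.89).

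The differences of the members were recomputed under each processing setting. Ly6d and Ly6g were higher in TUDCA under all settings that could include them, from 0.69 to 2.38 for Ly6d and from 1.04 to 1.49 for Ly6g, and Ly6e was lower under all. Ly6i was the member whose sign turned between settings that kept all other members' signs, at 0.35 in the high range alone and 0.05 without TUDCA replicate 2.

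**Figure D4:**
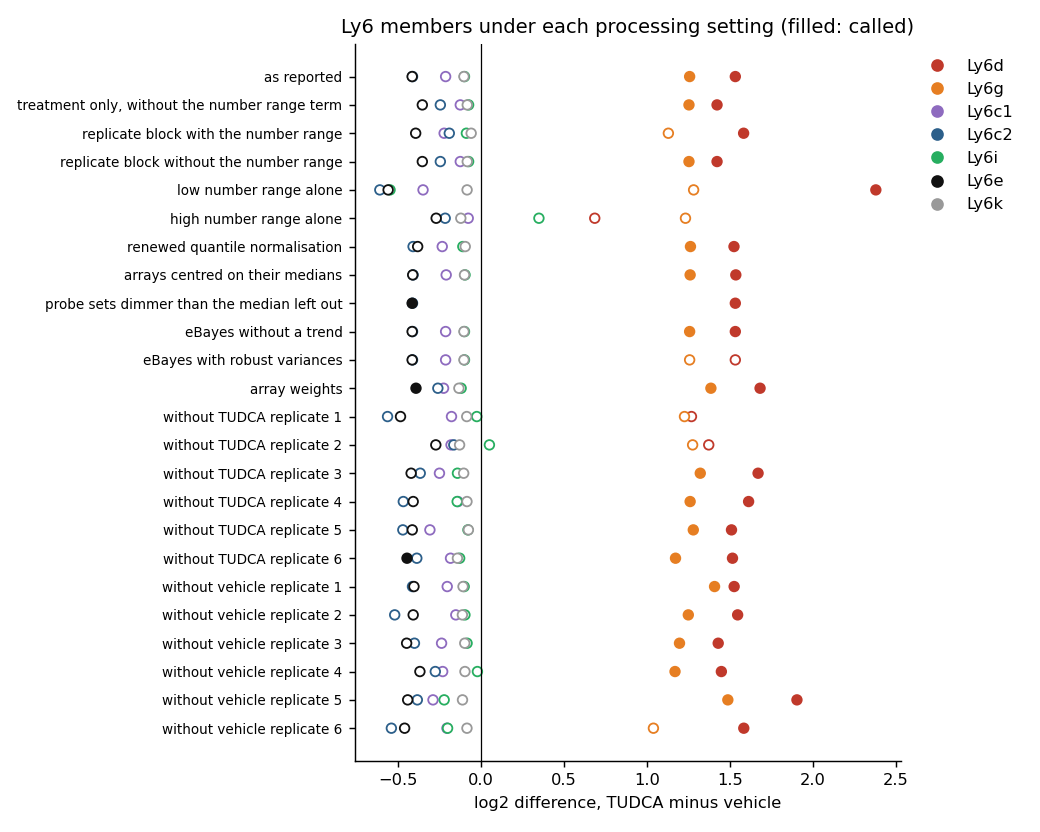
Log2 difference, TUDCA minus vehicle (horizontal axis), of each member under each processing setting (rows), filled where limma called it. Ly6d spreads most, from 0.69 in the high range alone to 2.38 in the low range alone, while Ly6g stays between 1.04 and 1.49.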

How the data were processed

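RNA of small intestine from 12 mice, 1 array each going by the sample numbers, was amplified with a low-input whole-transcript kit and hybridised to Affymetrix mouse gene arrays, per the labels' protocols. The deposited table holds the authors' log2 values, made with oligo and RMA per the submitters' processing notes (background correction, quantile normalisation and probe summary) with no version given. RMA makes array distributions alike, so a shift of all genes would not be seen. Low values have compressed differences. Without detection calls, probe sets with and without real signal are not told apart. The number of arrays limits the precision.

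Probe sets were named by the platform annotation: of 23991, 21557 named 1 gene, 787 several and 1647 none, and all entered the tests. The limma package 3.58.1 (R 4.3.3) fitted differences by lmFit and eBayes, its trend option on, with terms for treatment and sample number range, two-sided, with Benjamini-Hochberg adjustment over all probe sets and a threshold of 0.05. The limma p-values set each difference against the spread between these mice, with variances moderated over all probe sets. Of 206 genes in the lists 185 were measured, each by its brightest probe set. Correlations used residuals of that fit (Python 3.11.15, NumPy 2.4.6), with the interaction removed too for r within a range or group. Promoter windows were aligned with Biopython 1.88.

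The members and lists were chosen with earlier results of these data known. Genes were named by rule: all members, called Ly6/uPAR genes and cluster neighbours, the 3 Ly6/uPAR genes of highest absolute difference among the rest, the 3 of smallest p in each other list, and the 3 nearest to each member. Alternatives were the fit without range, the replicate number as a block, each range alone, renewed quantile normalisation, median centring, omission of dim probe sets, eBayes without trend or with robust variances, array weights, a threshold of 0.1 and omission of each array. The fit was tested on simulated data. Scanner files and probe sequences were not used here.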

Additional observations from a re-analysis of the deposited data

Results flagged for a closer look

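The log2 value of Ly6e in TUDCA replicate 2 was 9.84, below the next TUDCA array at 10.36, a gap of 0.69 of the whole range of the 6 TUDCA arrays. It was the only such array among the 14 sets of 6 values tested, 7 members in 2 groups. Chance gives such a gap in about 1 of 20 sets, so 1 among 14 sets is not unusual. Without this array the difference of Ly6e was -0.27, against -0.41 with it.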

How the results depend on the processing

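The 7 members' differences were within 1 residual SD of the reported ones under every setting except the ranges alone, where Ly6d was at 2.38 (low) and 0.69 (high) and Ly6i at -0.55 and 0.35. Against 2 members called as reported, limma called 1 in the low range alone, 1 with the replicate block and the range, and 0 in the high range alone and with robust variances, with 4, 3, 3 and 3 members under an unadjusted p of 0.05. It called 0 to 3 with 1 array left out. The member lost in the low range alone and with the block was Ly6g (1.28 and 1.13). Ly6e was called with dim probe sets left out, with array weights, at a threshold of 0.1 and without TUDCA replicate 6. In the high range alone 0 other Ly6/uPAR genes and 0 genes between the members were called (3 and 1 under an unadjusted p of 0.05). In the low range alone 2 other Ly6/uPAR genes were called higher and 0 lower, and 1 gene between the members higher and 0 lower, so that both splits differed from those reported (1 higher and 2 lower, 0 higher and 1 lower). With 1 array left out 1 to 2 were called between the members, the 2 without vehicle replicate 5. Ly6g2 was not called without the range, in the replicate block without it (-0.43), or in either range alone (-0.60 and -0.52), Ly6a2 in neither range alone (-0.43 and -0.70), and Plaur not with the replicate block and the range (0.62, adjusted p = 0.0539) or in the high range alone (0.47). The cause was not tested, but each range alone holds 6 arrays. The correlation of Ly6d and Ly6i was -0.53 with the interaction removed, -0.50 in vehicle and -0.56 in TUDCA arrays, -0.77 without the 2 farthest arrays (adjusted p = 0.202) and -0.85 to -0.77 with 1 array left out. Same-numbered arrays of the groups deviated together at -0.06 to 0.26, so the replicate numbers are not shown to pair the mice.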
